A study of Mus musculus with 18 samples.

Results

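Multipotent progenitors (MPPs) and short-term haematopoietic stem cells (ST cells) from tamoxifen-treated mice were compared over all 14419 measured genes. The libraries were taken by their labels: the 3 MPP libraries of mice given tamoxifen for 1 week and the 3 ST libraries of mice given it for 2 weeks, 6 of the 18 libraries of the series. Both groups were sorted from marrow; the mice were adult males of the strain C57BL/6. The same populations from mice given the corn oil vehicle (MPPs for 1 week, ST cells for 2 weeks, 3 libraries each) served as the background of the population difference. Population and length of treatment change together in every one of these comparisons and cannot be told apart. The antibodies and gates of the sort, the dose of tamoxifen, and how many mice went into a library are not stated in the sources used here. The series describes the 3 libraries of a group as biological replicates, and p-values here measure the spread between these libraries.

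Blood formation in the marrow starts from rare stem cells. Long-term stem cells give rise to short-term stem cells, which sustain the blood for a limited time, and these give rise to multipotent progenitors, which have lost lasting self-renewal and begin to express genes of the lineages they can enter. Flt3, a cytokine receptor, marks the progenitors that are primed for lymphoid and dendritic fates, while genes of platelets and their precursors are known to be active in part of the stem cell pool. Tamoxifen is a selective modulator of estrogen receptors, and estrogen receptor alpha is known to be active in haematopoietic stem cells.

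The study sequenced cDNA amplified from small amounts of RNA, and values are normalised CPM, that is, reads per gene rescaled so that libraries can be compared. Reads in the listed genes numbered 3558988 to 5279821 in the MPP libraries and 3611749 to 3982982 in the ST libraries, so that 1 read stood for 0.203 to 0.285 and 0.257 to 0.286. The MPP libraries are numbered 1, 2 and 3 and the ST libraries A, B and C, and 3 values in a row are given in that order. In bulk samples fewer cells of a kind and less RNA per cell cannot be told apart. MPP library 2 carried the highest sum of 16 erythroblast markers, 612.7 against 109.8 to 244.7 in the other 5 libraries. MPP library 1 had the highest values of several immediate early genes. Results that change when a library is left out are given with the value without it. Leaving out a library makes its group smaller, so a lost call alone does not show that this library decides the result. All 18 libraries enter 1 estimate of the spread, so leaving out an oil library or library A of the long-term stem cells given tamoxifen (LT library A) can move a count too; libraries are of the tamoxifen groups unless named as oil. Log2 fold changes are MPP minus ST on log2(value + 1), a scale that shrinks the changes of low genes, and a gene was called at a limma adjusted p below 0.05.

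The 2 directions were evenly filled. In all, 2820 genes (19.6%) were called, 1419 higher in MPPs (9.84%) and 1401 lower (9.72%). A change of over 2-fold was reached by 391 of the former and 421 of the latter. Without a test, the values of the 2 groups did not overlap in 5295 genes (36.7%). The median log2 fold change of all genes was -0.02. Genes named below follow a rule of rank, and gene lists are described by counts and medians beside these background shares. The rule took the largest differences only from genes whose groups did not overlap, so that trait is fixed for them. From each list it took members of smallest p, a choice that favours groups that do not overlap. Statements below that groups stood apart therefore describe the values and add no support to the calls.

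Printed here are stretches of 150 bases directly before the annotated start of 3 genes described below, because they hold the letters AGATAA, a form of the motif that GATA factors bind, and because Gata2, the gene of such a factor, is among the genes that differed. Gp5 and Epor were lower in MPPs and Dntt was higher. The sequences are from RefSeq's table for GRCm38.p6, read 5′ to 3′ along the gene, with the match on either strand in capitals (TTATCT is the match on the opposite strand). They lie at chr16:30310782-30310931 (minus strand), chr9:21963577-21963726 (minus strand) and chr19:41029125-41029274 (plus strand). The deposited table was made on another build, NCBIM37, so no coordinate of the study's own is given.
Gp5: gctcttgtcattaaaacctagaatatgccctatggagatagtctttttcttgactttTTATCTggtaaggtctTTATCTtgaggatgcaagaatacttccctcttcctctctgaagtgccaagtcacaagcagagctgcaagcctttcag
Epor: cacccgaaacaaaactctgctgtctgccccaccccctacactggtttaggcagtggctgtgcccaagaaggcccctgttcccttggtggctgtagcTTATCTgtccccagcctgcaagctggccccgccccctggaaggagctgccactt
Dntt: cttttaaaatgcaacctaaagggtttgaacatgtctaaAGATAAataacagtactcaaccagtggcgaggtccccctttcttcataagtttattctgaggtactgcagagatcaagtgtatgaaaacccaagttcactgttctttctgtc

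Promoter windows of 300 bases (250 before the start and 50 after it; the window listed before any other of its gene) were found for 9344 of the genes by symbol. They were searched on both strands for 6 motifs, of which AGATAA, the GATA motif, is given first. It stood in 70 of 983 windows of genes lower in MPPs (7.12%), 55 of 1014 windows of genes higher (5.42%) and 618 of all 9344 tested (6.61%). Over the 27025 genes of the reference table the share was 11.4%. Among the called megakaryocyte-erythroid genes, described below, 4 of 15 windows held it (Gp5, Epor, Pf4 and Tal1; Tal1 falls outside the naming rule and is named because the count is small). Among the called lymphoid priming genes it stood in 1 of 12 windows, that of Dntt. The letters GGAAGT, a core that ETS factors bind, stood in 33.4% of the windows of lower genes, 25% of those of higher genes and 29.2% of all tested. They stood in 7 of the 15 megakaryocyte-erythroid windows (46.7%) and in 9 of 20 windows of called ribosome biogenesis genes (45%). The share was 33.3% for called lymphoid priming genes and 21.4% for called oxidative phosphorylation genes. The letters TGTGGT, a core that RUNX factors bind, stood in 3 of those 15 windows (20%) and in 12.9% of all tested. The E-box of MYC, searched as CACGTG, stood in 1 of the 15 windows and in 10.1% of all tested. The letters AGGTCA, which are part of the estrogen response element, stood in 1 of the 15 windows and in 12.3% of all tested. Their share was 28.6% for called oxidative phosphorylation genes (4 of 14), 16.7% for lymphoid priming and 15% for ribosome biogenesis genes. The CRE-like letters TGACGT stood in 1 of the 15 windows and in 11.8% of all tested. Their share was 30% for called ribosome biogenesis genes (6 of 20), 14.3% for oxidative phosphorylation and 0% for lymphoid priming genes. These are matches of letters, with no measurement of binding.

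The surface markers by which such cells are usually sorted differed between the groups in both directions. Flt3 and Cd34, which mark progenitors, were higher in MPPs. Slamf1, Itga2b, Tek, Esam and Thy1, which are more usual on stem cells, were lower. For a marker used in the sort, the difference may restate how the groups were defined, and its p-value is no separate support. In long-term stem cells given tamoxifen the means of Itga2b (32.5) and Thy1 (2.99) lay below those of ST cells (58.8 and 8.68). Those of Slamf1, Tek and Esam lay above them (44.2, 41.3 and 21.1 against 28, 39.5 and 16.3). Of 23 sorting markers, all measured, 4 were higher and 6 lower in MPPs (43.5% called, beside 19.6% of all genes). Their median log2 fold change was -0.14. Flt3 stood at 529, 535 and 575 in MPPs against 68.7, 88.4 and 52 in ST cells. Every MPP library lay far above every ST library (log2 fold change 2.98, SE 0.38, adjusted p = 0.000158). Cd34, a sialomucin of progenitors, stood at 529, 499 and 591 in MPPs against 268, 351 and 265 in ST cells (log2 fold change 0.88, SE 0.23, adjusted p = 0.0137). Its groups did not overlap either, but the call was lost without MPP library 3, ST library A or ST library C (adjusted p up to 0.0594). Cd93, a receptor of early progenitors, stood at 647, 635 and 909 in MPPs against 304, 352 and 314 in ST cells (1.15, adjusted p = 1.41e-06). Il7r, the receptor chain of the lymphoid cytokine interleukin 7, stood at 7.41, 16.2 and 5.85 in MPPs against 1.99, 0.714 and 1.16 in ST cells (2.16, adjusted p = 0.00189).

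Slamf1, a SLAM family receptor used to isolate stem cells, stood at 0.508, 1.47 and 0.428 in MPPs against 30.7, 20.7 and 32.7 in ST cells. It was close to absent in MPPs, with 9 reads over the 3 libraries against 314 in ST cells, a ratio of 40.2 (exact 95% interval 20.9 to 88.7, counting error only; log2 fold change -4.03, SE 0.35, adjusted p = 1.37e-08). Itga2b, the platelet integrin alpha chain that also marks early haematopoietic cells, stood at 4.77, 5.78 and 5.28 in MPPs against 54.6, 45 and 76.9 in ST cells (log2 fold change -3.22, SE 0.25, adjusted p = 7.58e-09). Tek, the angiopoietin receptor, stood at 8.02, 8.05 and 6.7 in MPPs against 35.2, 37.9 and 45.6 in ST cells (-2.23, adjusted p = 9.73e-08). These 3 genes separated the groups with no overlap. Esam, an adhesion molecule of endothelium and stem cells, stood at 3.96, 2.61 and 0.998 in MPPs against 19, 15 and 15 in ST cells (-2.39, adjusted p = 2.39e-06), and Thy1 at 1.93, 2.61 and 1.28 in MPPs against 8.63, 9.57 and 7.83 in ST cells (-1.74, adjusted p = 0.00105). Cd9, a tetraspanin of stem cells and platelets, stood at 21.4, 23.9 and 20.4 in MPPs against 27.5, 46.7 and 55.1 in ST cells (-0.89, adjusted p = 0.00532), a call that was lost without ST library C (adjusted p up to 0.0553).

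Kit and Ly6a (Sca-1), the pair of markers that define the stem and progenitor compartment, were present in all 6 libraries. Kit stood at 646, 633 and 653 in MPPs against 573, 592 and 532 in ST cells (0.19, adjusted p = 0.244) and Ly6a at 91.9, 112 and 80 in MPPs against 74.5, 79.9 and 63.6 in ST cells (0.37, adjusted p = 0.335). Neither passed, although the groups did not overlap in either. Cd48, which is usually higher on progenitors than on stem cells, stood at 41.3, 38.4 and 66 in MPPs against 61.8, 73.3 and 64.8 in ST cells (-0.49, adjusted p = 0.137). Procr and Vcam1, further stem cell markers, did not pass (adjusted p = 0.43 and 0.823), and in MPP library 3 Procr (5.28) lay below the other 5 libraries. Fcgr3, a receptor of myeloid progenitors, stood at 2.74, 4.88 and 8.7 in MPPs against 13.2, 9 and 10.1 in ST cells, just short of the threshold (-0.96, adjusted p = 0.0514). Fcgr2b, Eng, Cd27, Csf1r and Cd244 did not pass either, with adjusted p from 0.0848 (Eng) to 0.898 (Fcgr2b).

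**Figure D1:**
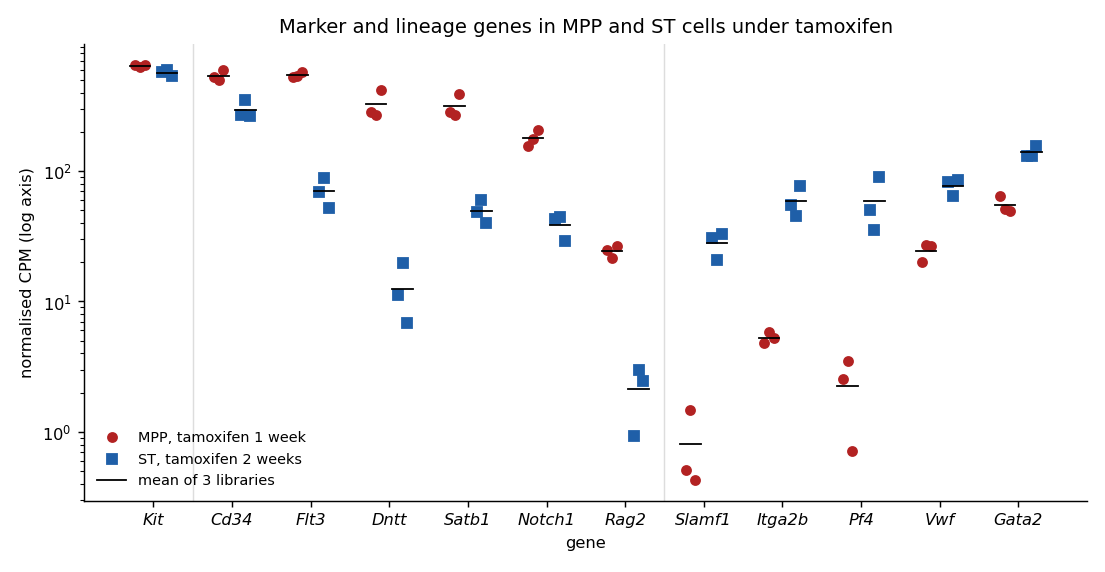
Normalised CPM (log axis) of 12 genes in each of the 3 MPP libraries (circles) and 3 ST libraries (squares) from tamoxifen-treated mice, with the mean of each group as a line. Kit did not pass the test; the 6 genes in the middle, Cd34 to Rag2, are higher in every MPP library, and the 5 on the right, Slamf1 to Gata2, are higher in every ST library.

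Among genes that prepare cells for the lymphoid fate, those called were higher in MPPs. Of 28 lymphoid priming genes measured (of 30 listed), 13 were higher, 0 lower and 15 not called, beside 9.84% of all genes higher, with a median log2 fold change of 0.53. Lower genes, 0 here, numbered 1 without LT library A. Dntt, the terminal transferase that adds bases at the joints of antigen receptor genes, had the largest log2 fold change of the named genes on the log2(value + 1) scale. It stood at 284, 269.6 and 418 in MPPs against 11.3, 19.6 and 6.8 in ST cells (log2 fold change 4.67, SE 0.47, adjusted p = 2.09e-05). Even the lowest MPP library exceeded the highest ST library many times over. Rag2, a subunit of the recombinase of antigen receptor genes, stood at 24.9, 21.4 and 26.7 in MPPs against 0.93, 3 and 2.44 in ST cells (log2 fold change 3.08, SE 0.42, adjusted p = 8.16e-06). Satb1, a chromatin organiser of lymphoid progenitors, stood at 283, 271 and 389 in MPPs against 48.5, 60.1 and 39.9 in ST cells (2.64, adjusted p = 1.84e-06). Ikzf1, the lymphoid zinc finger factor Ikaros, was abundant in both groups at 629, 629.6 and 694 in MPPs against 335, 378 and 321 in ST cells (0.92, adjusted p = 1.74e-05). In none of these 4 genes did a library of one group reach the other group, which was a condition for naming Dntt.

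Notch1, the receptor that directs progenitors to the T cell fate, stood at 157, 177 and 207 in MPPs against 42.9, 44.1 and 29.1 in ST cells (log2 fold change 2.20, SE 0.18, adjusted p = 1.11e-08). Its relative Notch2 stood at 394, 389 and 396 in MPPs against 181, 188 and 179 in ST cells (1.10, adjusted p = 8.36e-08), with little spread in either group. Both receptors were higher in every MPP library. In the wider list of Notch, Wnt and TGF-beta signalling, 14 of 30 measured genes (of 37 listed) were higher and 2 lower. This was 53.3% called, beside 19.6% of all genes, and the median log2 fold change was 0.54. Higher genes numbered 9 without MPP library 2. Tcf7l2, a transcription factor of the Wnt pathway, stood at 41.1, 47.3 and 37.5 in MPPs against 17.9, 11.9 and 16.3 in ST cells (1.41, adjusted p = 7.1e-06). Tgfbr3, a co-receptor of TGF-beta, went the other way at 17.4, 17.1 and 18.4 in MPPs against 55.4, 53.3 and 69.7 in ST cells (log2 fold change -1.69, SE 0.19, adjusted p = 7.73e-07).

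Among genes of platelets, their precursor cells and red cells, those called were lower in MPPs. Of 29 megakaryocyte-erythroid genes measured (of 30 listed), 20 were lower and 0 higher, against 9.72% of all genes lower, with a median log2 fold change of -0.96. Pf4, the chemokine platelet factor 4, stood at 2.54, 3.52 and 0.713 in MPPs against 50.6, 35.6 and 90 in ST cells (log2 fold change -4.21, SE 0.63, adjusted p = 0.000353). It rested on 29 reads in MPPs and 664 in ST cells, a ratio of 26.4 (exact 95% interval 18.2 to 39.7). Vwf, the von Willebrand factor of platelets and endothelium, stood at 20, 27.1 and 26.7 in MPPs against 82.8, 64.7 and 84.9 in ST cells (log2 fold change -1.62, SE 0.16, adjusted p = 1.27e-07). Gp5, a glycoprotein of the platelet surface whose upstream sequence is printed above, stood at 0.914, 0.34 and 0.143 in MPPs against 7.04, 5.86 and 7.83 in ST cells, with 5 reads against 76 (-2.46, adjusted p = 2.62e-05). On the erythroid side, Epor, the erythropoietin receptor, stood at 1.12, 2.61 and 1.85 in MPPs against 13.7, 6.71 and 11.7 in ST cells (-2.01, adjusted p = 3.87e-05). Car1, a carbonic anhydrase of red cells and their progenitors, stood at 22.6, 81.8 and 55.5 in MPPs against 413, 242 and 291 in ST cells (-2.69, adjusted p = 0.00035). In all 5 genes the groups stayed apart, which was a condition for naming Pf4 and Car1. Among the MPP libraries, library 2 was the highest for Car1.

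Among the strongest differences were further genes of the same direction. Tuba8, an alpha tubulin, stood at 1.93, 2.38 and 3.85 in MPPs against 45.8, 40.7 and 63.6 in ST cells (-3.79, adjusted p = 1.11e-08). Mfsd2b, the sphingosine phosphate exporter of red cells and platelets, stood at 3.15, 10.8 and 8.7 in MPPs against 58.3, 63.9 and 80 in ST cells (-3.12, adjusted p = 3.87e-08). Aldh1a1, a retinaldehyde dehydrogenase, stood at 4.57, 8.96 and 2.99 in MPPs against 42.9, 35.6 and 58.2 in ST cells (-2.91, adjusted p = 8.93e-08). These 3 were named as largest differences, for which groups that do not overlap were a condition. Each was several times higher in every ST library than in any MPP library. Gata2, a transcription factor needed by stem cells and by mast cells, stood at 64.3, 51.4 and 49.5 in MPPs against 131, 131 and 156 in ST cells (log2 fold change -1.33, SE 0.18, adjusted p = 1.68e-05).

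**Figure D2:**
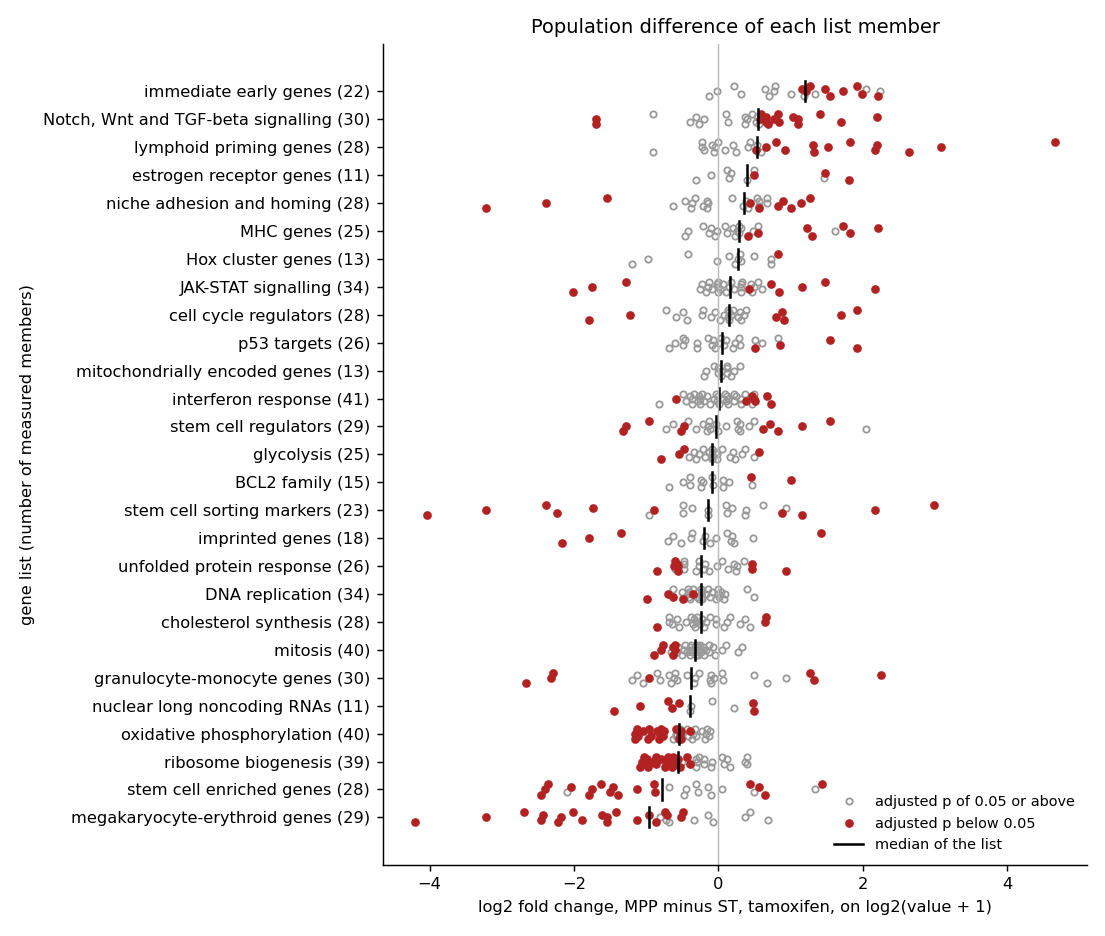
Log2 fold change (MPP minus ST, tamoxifen, on log2(value + 1)) of every measured member of 27 gene lists, with called members filled and the median of the list as a black line; the number measured is in brackets. Immediate early, Notch, Wnt and TGF-beta, and lymphoid priming genes lie to the right (medians 1.20, 0.54 and 0.53), and megakaryocyte-erythroid and stem cell enriched genes lie to the left (-0.96 and -0.78).

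Among genes known to be enriched in stem cells, more were called lower than higher in MPPs. Of 28 measured (of 29 listed), 13 were lower and 4 higher (60.7% called, beside 19.6% of all genes), with a median of -0.78. Higher genes numbered 1 without ST library C and 2 without MPP library 1, MPP library 2 or ST library A. Tgm2, a transglutaminase, stood at 5.58, 8.96 and 4.71 in MPPs against 41.3, 32.7 and 34.5 in ST cells (log2 fold change -2.36, SE 0.29, adjusted p = 3.82e-06). Fhl1, a LIM domain protein, stood at 4.16, 3.52 and 2.71 in MPPs against 16.3, 17 and 18.6 in ST cells (-2.05, adjusted p = 3.58e-06). Apoe, the lipid carrier apolipoprotein E, stood at 15.3, 11.7 and 11.3 in MPPs against 91.5, 54.7 and 81 in ST cells (-2.46, adjusted p = 8.26e-05). None of these overlapped between the groups, which was a condition for naming Apoe. Clec1a, a lectin receptor, was at 0.305, 0.567 and 0.713 in MPPs against 8.1, 6.71 and 6.29 in ST cells (-2.40, adjusted p = 7.1e-06), with 5 reads against 77. Socs2, a feedback inhibitor of cytokine signalling, stood at 8.43, 6.24 and 2.99 in MPPs against 17.4, 22.7 and 23 in ST cells (log2 fold change -1.75, SE 0.27, adjusted p = 3.83e-05).

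Transcription factors and other regulators of stem cells were split. Of 29 measured (of 30 listed), 5 were higher and 5 lower (34.5% called, beside 19.6% of all genes), with a median of -0.027. Hlf, a leucine zipper factor of stem and early progenitor cells, was higher in MPPs at 996, 962 and 579 in MPPs against 363, 412 and 332 in ST cells (log2 fold change 1.16, SE 0.18, adjusted p = 0.000107), with MPP library 3 closest to the ST values. Msi2, an RNA-binding protein that sustains self-renewal, stood at 717, 697 and 549 in MPPs against 370.2, 424 and 400.5 in ST cells (0.71, adjusted p = 0.000107). The counts changed with single libraries, to 3 without MPP library 1 and 8 without MPP library 3 for higher genes and 3 without MPP library 3 or ST library A for lower ones. Of 13 measured Hox cluster genes (of 30 listed), which pattern stem cells as well as the embryo, Hoxa9 alone was called (7.69%, beside 19.6% of all genes). It stood at 65.7, 46.2 and 38.1 in MPPs against 21.9, 25.3 and 35.8 in ST cells (0.82, adjusted p = 0.00685). The call was lost without MPP library 1 (adjusted p up to 0.07). The count of higher Hox genes was 0 without MPP library 1, 2 without ST library A or ST library C and 3 without LT library A or ST oil library B, and that of lower ones, 0 here, was 1 without LT library A, MPP oil library 1, MPP oil library 2, MPP library 1 or ST library C.

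Imprinted genes, which are expressed from the copy of a single parent, include growth regulators of stem cells. Of 18 measured (of 24 listed), 3 were lower and 1 higher (22.2% called, near the 19.6% of all genes), with a median of -0.20. Grb10, an adaptor that dampens growth factor signalling, stood at 19.8, 17.1 and 11 in MPPs against 65.8, 75.6 and 78.4 in ST cells (log2 fold change -2.16, SE 0.22, adjusted p = 3.02e-07). Cdkn1c, the cyclin-dependent kinase inhibitor of resting stem cells, stood at 2.94, 3.97 and 1.85 in MPPs against 12.4, 9.57 and 15.3 in ST cells (-1.79, adjusted p = 0.00013). Igf2r, the scavenging receptor for insulin-like growth factor, was higher at 64.3, 77.5 and 56.3 in MPPs against 30.2, 23.3 and 19.1 in ST cells (1.42, adjusted p = 0.000122). All 3 kept the groups apart. The call of Phlda2 (-1.34, 0.0312) was lost without MPP library 1, MPP library 2 or ST library C or with neither trend nor robust settings (adjusted p up to 0.174). Higher genes numbered 2 without LT library A, ST oil library A or ST library B.

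Granulocyte and monocyte genes were called in both directions. Of 30 measured, 3 were higher and 4 lower (23.3% called, near the 19.6% of all genes), with a median of -0.39. Cd33, an inhibitory receptor of myeloid cells, was higher at 29.9, 47.5 and 35.8 in MPPs against 7.04, 8.14 and 6.03 in ST cells (log2 fold change 2.25, SE 0.32, adjusted p = 1.42e-05). The lower ones included genes of granule proteins. Elane, neutrophil elastase, stood at 33.4, 80.2 and 143 in MPPs against 370.2, 326 and 415 in ST cells (-2.32, adjusted p = 0.0138). Ctsg, cathepsin G, stood at 21.2, 34.1 and 127 in MPPs against 249, 196 and 235 in ST cells (-2.29, adjusted p = 0.00887). Ms4a3, a membrane protein of granulocyte-monocyte progenitors, stood at 2.74, 5.1 and 11 in MPPs against 33.6, 38.7 and 50.2 in ST cells (-2.67, adjusted p = 1.73e-05). In these 3 genes MPP library 3 was the highest of the MPP libraries. No MPP library reached an ST library, which was a condition for naming Elane. The call of Elane was lost without MPP library 1 or with a fit of only the groups compared (adjusted p up to 0.0636), that of Ctsg with a fit of only the groups compared (adjusted p up to 0.113), and that of Ly6c2 (-0.96, 0.0102), a surface marker of monocytes, without MPP library 1 or ST library B (adjusted p up to 0.0822). Lower genes numbered 2 without MPP library 1, 7 without LT library A and 8 without MPP library 3, and higher genes 1 without ST library B.

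Of 12 measured markers of mast cells, basophils and eosinophils (of 16 listed), 7 were lower in MPPs and 0 higher. This was 58.3% called, beside 19.6% of all genes, and the median was -1.43. Their summed level was 76.67 to 135.8 in MPPs and 246.0 to 329.2 in ST cells. Cpa3, a protease of mast cells and of their progenitors, stood at 7.61, 6.01 and 3.85 in MPPs against 40, 21.9 and 57.9 in ST cells (log2 fold change -2.52, SE 0.31, adjusted p = 3.38e-06). Ms4a2, a chain of the IgE receptor, stood at 2.13, 0.794 and 2.71 in MPPs against 19.5, 14.7 and 21.2 in ST cells (-2.81, adjusted p = 7.82e-06). Hdc, the enzyme that makes histamine, stood at 3.55, 4.88 and 6.7 in MPPs against 16.3, 19 and 20.4 in ST cells (-1.72, adjusted p = 0.000488). Each separated the groups. Gata2, given above, is also on this list and makes up much of the sum. In MPPs it stood at 64.3, 51.4 and 49.5 of sums of 94.62, 76.67 and 135.8. In ST cells it stood at 131, 131 and 156 of sums of 275.8, 246.0 and 329.2.

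The MHC genes that were called were higher in MPPs, and the 4 with the smallest p, given here, serve presentation by class II molecules. Of 25 MHC genes measured, 7 were higher and 0 lower (28% called, beside 19.6% of all genes), with a median of 0.28. The count was 3 without MPP library 1, MPP library 2 or ST library C, and the count of lower genes 1 without LT library A or ST library B. Cd74, the invariant chain that accompanies class II molecules, stood at 115, 104 and 74 in MPPs against 18.5, 22.7 and 18.9 in ST cells (log2 fold change 2.21, SE 0.29, adjusted p = 3.87e-05). H2-Ob, a regulator of peptide loading, stood at 125, 121 and 145 in MPPs against 28.8, 39.9 and 40.4 in ST cells (log2 fold change 1.82, SE 0.19, adjusted p = 2.52e-07). Both were higher in every MPP library. H2-Eb1 and H2-Ab1, chains of class II molecules, stood at 18.4, 11.7 and 7.27 in MPPs against 2.79, 3.29 and 2.44 in ST cells and 44.4, 42.5 and 30.4 in MPPs against 19.3, 15 and 13.7 in ST cells (1.73, 0.00913 and 1.23, 0.0132 for log2 fold change and adjusted p). Their calls were lost without MPP library 1 (adjusted p up to 0.057) and without MPP library 1, MPP library 2 or ST library C (adjusted p up to 0.0611), respectively.

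Dendritic cell markers, which share Flt3 and class II genes with the lists above, held 5 higher and 0 lower of 13 measured (of 15 listed). This was 38.5% called, beside 19.6% of all genes, and the median was 1.12. The count was 3 without ST library C. The summed level was 939.5 to 1021 in MPPs and 226.4 to 306.7 in ST cells, of which Flt3 made up the largest share in MPPs. Tcf4, the factor of plasmacytoid dendritic cells that is also active in progenitors, stood at 256, 231 and 253 in MPPs against 109, 129 and 103 in ST cells (1.12, adjusted p = 2.52e-07). Clec9a and Itgax, markers of mature dendritic cells, were close to the detection limit: Clec9a stood at 4.37, 3.74 and 2.99 in MPPs against 0.399, 0.429 and 1.16 in ST cells (1.52, adjusted p = 0.0117, 47 reads against 6), and Itgax at 3.55, 4.42 and 6.13 in MPPs against 1.46, 1.57 and 0.128 in ST cells (1.54, adjusted p = 0.00674). The call of Itgax was lost without ST library C (adjusted p up to 0.0663). The part of dendritic cells in these results was not tested.

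Immediate early genes, which respond within minutes to stimuli and to handling of cells, were higher in MPPs where called. Of 22 measured (of 27 listed), 9 were higher, 0 lower and 13 not called (40.9% called, beside 19.6% of all genes). The median, 1.20, was the highest of the 27 function lists. The count was 4 without MPP library 1. Klf6, a zinc finger factor, stood at 121, 73.8 and 44.1 in MPPs against 25.4, 24.7 and 27.1 in ST cells (log2 fold change 1.48, SE 0.23, adjusted p = 6.22e-05). Btg2, an inhibitor of proliferation, stood at 75.4, 50.9 and 34.4 in MPPs against 7.31, 12.1 and 22.7 in ST cells (1.92, adjusted p = 0.00824). Dusp5, a phosphatase that switches off ERK, stood at 14.9, 10.8 and 8.98 in MPPs against 2.79, 2.71 and 2.7 in ST cells (1.72, adjusted p = 0.000416). Dusp2, a related phosphatase, stood at 46.8, 23 and 19.8 in MPPs against 14.2, 9.86 and 12.2 in ST cells (1.15, adjusted p = 0.00922), a call lost without MPP library 1 (adjusted p up to 0.0947). In these 4 genes the groups did not overlap, and MPP library 1 held the highest value. The part of cell handling in this result was not tested.

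Among genes of the oxidative phosphorylation machinery, those called were lower in MPPs. Of 40 nuclear-encoded genes, 20 were lower and 0 higher (50% called, beside 19.6% of all genes). None of the 40 had a log2 fold change above 0, and the median was -0.55. Ndufb9, a subunit of complex I, stood at 35.2, 31 and 30.9 in MPPs against 98.4, 59 and 67.9 in ST cells (log2 fold change -1.16, SE 0.18, adjusted p = 6.13e-05). Cox7b and Cox5b, subunits of cytochrome oxidase, stood at 53.7, 39.4 and 38.9 in MPPs against 117, 90.1 and 89.2 in ST cells and at 37.5, 39.4 and 30.7 in MPPs against 75.8, 61 and 75.4 in ST cells (-1.15, 0.000158 and -0.96, 0.000533 for log2 fold change and adjusted p). Ndufv2, of complex I, stood at 22.8, 18.3 and 28.9 in MPPs against 39.2, 51.3 and 49.2 in ST cells (-0.98, adjusted p = 0.000746). No MPP library reached an ST library in any of these 4. Of 13 mitochondrially encoded genes limma called 0 (0 at an unadjusted p below 0.05), edgeR 0 and DESeq2 0, and the median was 0.042; the smallest p in that list was that of mt-Nd6 (61.8, 67 and 33.8 in MPPs against 29.9, 70.1 and 35.1 in ST cells; 0.30, adjusted p = 0.695).

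Genes of ribosome biogenesis, where called, were lower too. Of 39 measured (of 40 listed), 22 were lower, 0 higher and 17 not called (56.4% called, beside 19.6% of all genes). The median was -0.56. Lower genes numbered 13 without ST library C, and higher genes 1 without ST oil library C or ST library B and 2 without LT library A. Gnl3, the nucleolar GTPase nucleostemin, stood at 104, 90.8 and 106 in MPPs against 185, 212 and 247 in ST cells (log2 fold change -1.08, SE 0.13, adjusted p = 1.6e-06). Nop58, a core protein of small nucleolar particles, stood at 247, 211 and 209 in MPPs against 368, 409 and 443 in ST cells (log2 fold change -0.87, SE 0.12, adjusted p = 1.32e-05). Polr1d, shared by RNA polymerases I and III, stood at 49.2, 49.8 and 60 in MPPs against 119, 93.9 and 108 in ST cells (-1.0, adjusted p = 6.26e-05). Ebna1bp2, a factor of large subunit assembly, stood at 56.5, 48.4 and 47.2 in MPPs against 97.9, 96.7 and 110.3 in ST cells (-0.99, adjusted p = 0.000135). All 4 were higher in every ST library. Among nuclear long noncoding RNAs, 5 of 11 measured (of 18 listed) were lower and 2 higher (63.6% called, beside 19.6% of all genes). Snhg1 and Snhg3, host genes of small nucleolar RNAs, stood at 184, 128 and 144 in MPPs against 219, 233 and 289 in ST cells and at 5.38, 5.33 and 5.56 in MPPs against 9.43, 17.6 and 26.3 in ST cells (-0.70, 0.00134 and -1.44, 0.0028 for log2 fold change and adjusted p). Malat1 (0.49, 0.00755) and Tug1 (0.48, 0.0143) were the 2 higher ones; the call of Malat1 was lost without MPP library 2 or with quantile normalisation (adjusted p up to 0.7) and that of Tug1 without MPP library 1 or ST library A, with quantile normalisation or with neither trend nor robust settings (adjusted p up to 0.121). The count of lower noncoding RNAs was 2 without MPP library 3, ST library B or ST library C and 3 without MPP library 2, and that of higher ones 1 without MPP library 1, MPP library 2 or ST library A.

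The unfolded protein response, by which cells adjust the folding capacity of the endoplasmic reticulum, went in both directions. Of 26 genes measured (of 28 listed), 6 were lower and 3 higher (34.6% called, beside 19.6% of all genes), with a median of -0.24. Lower genes numbered 3 without ST library C. The chaperone Hsp90b1 was lower at 773, 732 and 886 in MPPs against 1161, 1281 and 1226 in ST cells (log2 fold change -0.62, SE 0.14, adjusted p = 0.0018). Pdia3, a disulphide isomerase, stood at 392, 385 and 365 in MPPs against 463, 616 and 646 in ST cells (-0.58, adjusted p = 0.00647), a call lost without ST library C (adjusted p up to 0.05). Ern1, the sensor IRE1, was higher at 253, 289 and 327 in MPPs against 162, 163 and 127 in ST cells (0.94, adjusted p = 0.00292), and so was Sel1l, of the degradation pathway, at 132, 117 and 134 in MPPs against 88.6, 97.6 and 90.5 in ST cells (0.46, adjusted p = 0.00725). In these 4 genes the groups did not overlap.

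Genes of DNA replication and of mitosis, where called, were lower in MPPs. Of 34 DNA replication genes, 5 were lower and 0 higher (14.7% called, median -0.24), and of 40 mitosis genes, 7 were lower and 0 higher (17.5% called, median -0.32) beside 19.6% called over all genes. Rfc4, a subunit of the clamp loader, stood at 29.1, 27.8 and 23 in MPPs against 53.8, 47.3 and 61.2 in ST cells (-1.0, adjusted p = 0.00108). Prim1, a primase subunit, stood at 67.3, 76.8 and 69.4 in MPPs against 123, 115 and 112 in ST cells (-0.70, adjusted p = 0.00124). Ccnb2, a mitotic cyclin, stood at 57.2, 79.5 and 80.3 in MPPs against 123, 130.1 and 149 in ST cells (-0.89, adjusted p = 0.00435). Cdk1, the kinase it activates, stood at 44.8, 45.9 and 60 in MPPs against 89.1, 74.1 and 99.2 in ST cells (-0.79, adjusted p = 0.00608). All 4 were lower in every MPP library. Mad2l1 (-0.63, 0.00492) and Ndc80 (-0.63, 0.00496), of the spindle checkpoint and the kinetochore, were lower as well, while the calls of Pcna (-0.48, 0.0117) and Gins4 (-0.62, 0.0181) were lost without MPP library 3 or with neither trend nor robust settings (adjusted p up to 0.0844) and without MPP library 1, ST library A or ST library C (adjusted p up to 0.111). Lower replication genes numbered 3 without MPP library 1 or ST library C and 8 without LT library A, with higher ones at 1 without LT library A or ST library B. Lower mitosis genes numbered 4 without MPP library 1, MPP library 2, ST library A or ST library C, with higher ones at 1 without MPP library 1.

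Among 28 regulators of the cell cycle (of 31 listed), 5 were higher and 2 lower (25% called, beside 19.6% of all genes), with a median of 0.14. Foxo3, a forkhead factor that keeps stem cells quiescent, stood at 367, 378 and 337 in MPPs against 179, 208 and 191 in ST cells (log2 fold change 0.90, SE 0.13, adjusted p = 1.13e-05). Ccng2, an atypical cyclin of arrested cells, stood at 61.8, 61.1 and 53.2 in MPPs against 23.2, 42.4 and 31.5 in ST cells (0.88, adjusted p = 0.00106). Btg1, a relative of Btg2, stood at 148, 92.7 and 52.6 in MPPs against 24.6, 22.4 and 36.1 in ST cells (1.69, adjusted p = 0.00116). All 3 were higher in every MPP library, while Cdkn1c, given above, was lower. Among 26 p53 targets (of 28 listed), 4 were higher and 0 lower (15.4% called, near the 19.6% of all genes; median 0.055). Trp53inp1, a p53-induced nuclear protein, stood at 80.9, 53.2 and 58 in MPPs against 19, 26.7 and 18.1 in ST cells (log2 fold change 1.54, SE 0.20, adjusted p = 5.46e-06). Xpc, a damage sensor of nucleotide excision repair, stood at 99.8, 105 and 111 in MPPs against 61.2, 57.3 and 55.1 in ST cells (0.85, adjusted p = 0.00011). The call of Sesn1 (0.51, 0.0227) was lost without MPP library 1, ST library A or ST library C or with neither trend nor robust settings (adjusted p up to 0.116), and the count of lower targets was 1 without MPP library 2. Of 15 BCL2 family genes (of 21 listed), which set the threshold of apoptosis, 2 were higher and 0 lower (13.3% called, beside 19.6% of all genes). These were Bcl2l11, the killer protein Bim, at 46, 48 and 33.2 in MPPs against 15.8, 23 and 23.5 in ST cells (1.00, adjusted p = 0.000868). Mcl1, a survival protein, stood at 335, 288 and 216 in MPPs against 173, 202 and 231 in ST cells (0.45, adjusted p = 0.0198). The call of Mcl1 was lost without MPP library 1, MPP library 2 or ST library A, with quantile normalisation or with neither trend nor robust settings (adjusted p up to 0.156), and the count of higher genes was 1 without MPP library 1, MPP library 2 or ST library A.

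Cytokine signalling through JAK and STAT held 6 higher and 3 lower of 34 genes (of 35 listed), with a median of 0.16. This was 26.5% called, beside 19.6% of all genes. Il6st, the receptor chain shared by interleukin 6 and its relatives, stood at 78.1, 111 and 138 in MPPs against 46.9, 53.3 and 41.7 in ST cells (log2 fold change 1.15, SE 0.17, adjusted p = 3.22e-05). Stat5b, a transcription factor downstream of many blood cytokines, stood at 92.5, 88.6 and 101 in MPPs against 38.7, 57 and 63.3 in ST cells (0.84, adjusted p = 0.000373). Both were higher in every MPP library, and Socs2 and Epor, given above, were lower. Il1r1, the interleukin 1 receptor, which signals outside this pathway, was among the largest differences, at 169.6, 122 and 152 in MPPs against 21.7, 35.3 and 17.3 in ST cells (log2 fold change 2.58, SE 0.35, adjusted p = 0.000113). Of 41 interferon response genes measured, 6 were higher and 1 lower (17.1% called, near the 19.6% of all genes), with a median of 0.004. The count of higher genes was 0 without MPP library 2, 1 without ST library C and 2 without MPP library 1 or ST library A, and that of lower genes 0 without MPP library 1, MPP library 3, ST library A or ST library C. Parp14 (0.49, 0.0127), Oas3 (0.72, 0.0163) and Ddx58 (0.51, 0.0302) were higher and Oas1a (-0.58, 0.0362) lower, where values are the log2 fold change and adjusted p. The call of each was lost without 2 libraries or more. That of Parp14 was lost without MPP library 2 or ST library A (adjusted p up to 0.074), and that of Oas3 without MPP library 2 or ST library C, with a fit of only the groups compared or with neither trend nor robust settings (adjusted p up to 0.181). Ddx58 lost it without MPP library 1, MPP library 2, ST library A or ST library C or with neither trend nor robust settings (adjusted p up to 0.175). Oas1a lost it without MPP library 1, MPP library 3, ST library A or ST library C, with quantile normalisation or with library weights (adjusted p up to 0.189).

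Genes of adhesion and homing, by which stem cells hold to the niche, held 7 higher and 3 lower of 28 (of 30 listed). This was 35.7% called, beside 19.6% of all genes, and the median was 0.36. Cd44, the hyaluronan receptor, stood at 381, 367 and 402 in MPPs against 192, 231 and 196 in ST cells (log2 fold change 0.90, SE 0.12, adjusted p = 8.78e-06). Cd47, the signal against phagocytosis, stood at 1176, 1076 and 1266 in MPPs against 603, 747 and 630.3 in ST cells (log2 fold change 0.83, SE 0.12, adjusted p = 2.75e-05). Both were higher in every MPP library, while the integrin Itga2b and Esam, given above, were lower. In glycolysis, 3 of 25 genes were lower and 1 higher (16% called, beside 19.6% of all genes), with a median of -0.085. Ldha, a lactate dehydrogenase chain, stood at 374, 307 and 331 in MPPs against 570.3, 538 and 650.3 in ST cells (log2 fold change -0.80, SE 0.12, adjusted p = 2.22e-05). Eno1, enolase, stood at 198, 209 and 202 in MPPs against 316, 282 and 295 in ST cells (-0.55, adjusted p = 0.00449). Hk1, a hexokinase, stood at 82.1, 81.3 and 83.1 in MPPs against 114, 109.6 and 123 in ST cells (-0.48, adjusted p = 0.0197). These 3 were lower in every MPP library. Pdk1, the kinase that holds pyruvate back from the mitochondrion, was higher at 117, 113 and 115 in MPPs against 64.7, 82.4 and 88.5 in ST cells (0.56, adjusted p = 0.0064). The call of Hk1 was lost without MPP library 1, MPP library 2 or ST library C or with neither trend nor robust settings (adjusted p up to 0.0794), and that of Pdk1 without ST library A (adjusted p up to 0.0529). Higher genes numbered 0 without ST library A, and lower genes 5 without LT library A.

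Of 28 cholesterol synthesis genes, 2 were higher and 1 lower (10.7% called, beside 19.6% of all genes), with a median of -0.24. Sqle, the squalene epoxidase, was lower at 37.1, 31.2 and 38.4 in MPPs against 65, 65.3 and 64.3 in ST cells (log2 fold change -0.86, SE 0.16, adjusted p = 0.000354). Scap and Srebf2, the sensor and the transcription factor of the pathway, were higher (0.66, 0.00633 and 0.64, 0.0231 for log2 fold change and adjusted p). Their calls were lost without ST library A (adjusted p up to 0.0515) and without MPP library 1, MPP library 2, ST library A or ST library C, with quantile normalisation or with neither trend nor robust settings (adjusted p up to 0.142). Higher genes numbered 0 without ST library A and 1 without MPP library 1, MPP library 2 or ST library C, and lower genes 2 without MPP library 2 or ST library A.

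The remaining genes of largest difference were higher in MPPs. Ccl3, a chemokine that attracts leukocytes, stood at 55.7, 31 and 29.5 in MPPs against 3.32, 6.71 and 3.72 in ST cells (2.82, adjusted p = 3.85e-06). Slc35d3, a nucleotide sugar transporter family member, stood at 65.5, 62.3 and 44.3 in MPPs against 6.51, 8.71 and 8.35 in ST cells (2.71, adjusted p = 8.36e-08). Ahnak, a giant scaffold protein, stood at 194, 224 and 215 in MPPs against 46.4, 51.6 and 26.3 in ST cells (2.37, adjusted p = 4.18e-06). Each of these was several times as high in every MPP library as in any ST library. Ddx4, a helicase known from germ cells, stood at 48.4, 35.3 and 25 in MPPs against 4.91, 5 and 7.32 in ST cells (2.43, adjusted p = 0.00217). Dhrs3, which reduces retinaldehyde, stood at 28.7, 30.1 and 46.9 in MPPs against 7.57, 5.57 and 7.06 in ST cells (2.20, adjusted p = 4.65e-06). Groups that do not overlap were a condition for naming the genes of this paragraph.

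Since the mice had been given an estrogen receptor modulator, the receptor genes and known targets were read out. The gene of estrogen receptor alpha, Esr1, stood at 49.8, 62.3 and 64 in MPPs against 24.6, 21 and 7.58 in ST cells (log2 fold change 1.81, SE 0.28, adjusted p = 0.000126). Every MPP library held more than the highest ST library. In oil the direction was the same, with 78.5 ± 10.5 in MPPs against 36.7 ± 8.96 in ST cells (SD, n = 3; log2 fold change 1.09, adjusted p = 0.00566), and the difference between the 2 treatments was not called (adjusted p = 0.491). Rara, a retinoic acid receptor that is a known estrogen target in other tissues, stood at 25.3, 17.6 and 15.3 in MPPs against 3.85, 9.57 and 6.29 in ST cells (1.47, adjusted p = 0.00137). Nrip1, a corepressor of nuclear receptors, stood at 241, 234 and 236 in MPPs against 184, 184 and 142 in ST cells (0.49, adjusted p = 0.0036). In both the groups were apart. Of 11 genes of this list that were measured (of 18 listed), 3 were higher and 0 lower, with a median of 0.40. The share called was 27.3%, beside 19.6% of all genes. In oil, 5 of the list were higher and 0 lower, with a median of 0.535. The difference of this list between the treatments was not tested.

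Greb1, a classical target that the receptor activates in other tissues, did not separate the populations under tamoxifen, with 2.94, 6.24 and 6.7 in MPPs against 3.85, 2.43 and 4.75 in ST cells (log2 fold change 0.40, SE 0.36, adjusted p = 0.48). The values overlapped and rested on 64 reads in MPPs and 40 in ST cells. Pdgfrb, a receptor tyrosine kinase of pericytes and stroma, stood at 17.6, 15.5 and 32.9 in MPPs against 10.5, 10.4 and 8.6 in ST cells (log2 fold change 1.02, SE 0.27, adjusted p = 0.00808), higher in every MPP library. The call was lost without MPP library 3 (adjusted p up to 0.0896). In oil its level was higher in both populations, with 55.2 ± 8.84 in MPPs against 37 ± 4.84 in ST cells (SD, n = 3; 0.56, adjusted p = 0.116).

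**Figure D3:**
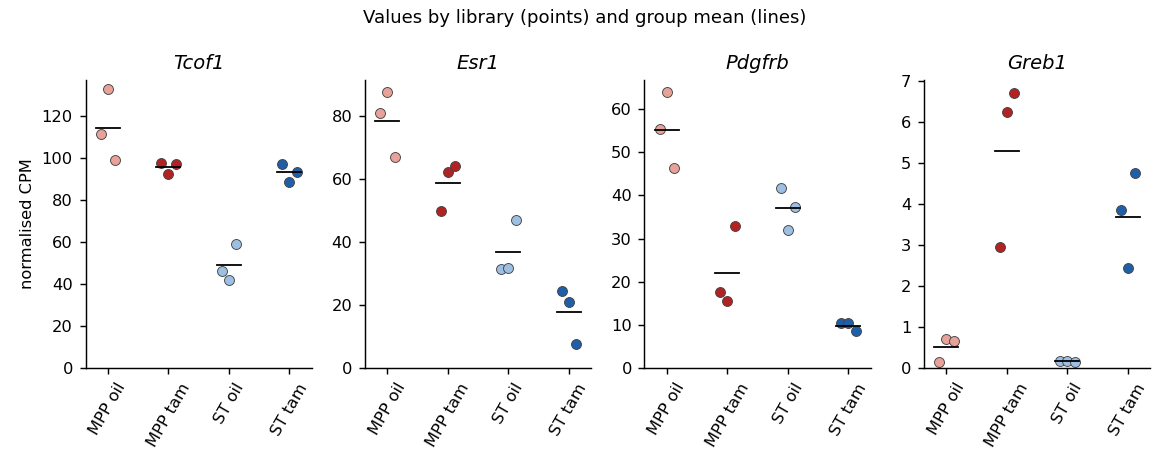
Normalised CPM of Tcof1, Esr1, Pdgfrb and Greb1 in each library (points) of MPPs and ST cells given oil or tamoxifen (tam), with group means as lines; every axis starts at 0. Tcof1 overlaps between the populations under tamoxifen and is lower in ST cells than in MPPs in oil; Esr1 is higher in MPPs than in ST cells under both treatments.

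To see which of these differences also stood between the populations without tamoxifen, MPPs and ST cells of oil-treated mice were compared in the same fit. In oil, 4430 genes were called (30.7%), 2423 higher in MPPs (16.8%) and 2007 lower (13.9%). Of the 2820 genes called under tamoxifen, 1950 were also called in oil in the same direction, 69.1% of the tamoxifen calls and 44% of the oil calls, and 9 were called in opposite directions. Of the 861 called under tamoxifen alone, 732 had the same sign in oil. The 2 comparisons share no library, and their log2 fold changes correlated with Pearson r = 0.661 and Spearman rho = 0.621 across the 14419 genes, which are not independent of one another. The median size of the log2 fold change was 0.34 under tamoxifen and 0.43 in oil.

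Flt3, Dntt, Slamf1 and Itga2b differed in the same direction under both treatments. Flt3 stood in oil at 681 ± 31 in MPPs against 142 ± 52.3 in ST cells (SD, n = 3; log2 fold change 2.32 against 2.98 under tamoxifen), and Dntt at 436 ± 37 in MPPs against 36.9 ± 10.2 in ST cells (3.56 against 4.67). Slamf1 stood at 0.785 ± 0.455 in MPPs against 19.1 ± 9.57 in ST cells (-3.37 against -4.03), and Itga2b at 8.04 ± 0.915 in MPPs against 63.7 ± 16.5 in ST cells (-2.81 against -3.22). All 4 were called in oil. Among lists, 17 megakaryocyte-erythroid genes were lower in oil and 20 under tamoxifen, 29 oxidative phosphorylation genes were lower in oil and 20 under tamoxifen, and 16 lymphoid priming genes were higher in oil and 13 under tamoxifen. Ribosome biogenesis had 15 lower and 7 higher genes in oil (median -0.016) and 22 lower and 0 higher under tamoxifen (median -0.56). Mitosis had 5 lower and 7 higher in oil (median 0.091) and 7 lower and 0 higher under tamoxifen (median -0.32). None of these list differences between treatments was tested.

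Some named genes that were called under tamoxifen were not called in oil. Socs2 stood in oil at 5.98 ± 0.888 in MPPs against 8.26 ± 0.992 in ST cells (SD, n = 3; -0.41, adjusted p = 0.257). Hsp90b1 stood there at 663 ± 54.9 in MPPs against 679.9 ± 109.5 in ST cells (-0.03, 0.91), and Eno1 at 182 ± 11.1 in MPPs against 165 ± 18.2 in ST cells (0.14, 0.45). The difference between the treatments, tested for each gene, was not called for any of them (adjusted p = 0.174, 0.227 and 0.167). Over all genes the test of the difference called 1 gene with limma (0.00694%), and 1742 had an unadjusted p below 0.05. It was Tcof1, a nucleolar protein that promotes the transcription of ribosomal RNA genes.

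Tcof1 stood under tamoxifen at 97.6, 92.4 and 97.1 in MPPs against 97.4, 88.7 and 93.3 in ST cells, with overlapping groups (log2 fold change 0.04, SE 0.14, adjusted p = 0.888). In oil it stood at 111, 133 and 98.9 in MPPs and 46.2, 41.9 and 59.1 in ST cells, with no overlap (log2 fold change 1.21, adjusted p = 4.78e-07). The population difference under tamoxifen minus that in oil was -1.17 (SE 0.20, adjusted p = 0.0441). The call was lost without MPP oil library 1, MPP oil library 2, MPP library 1, MPP library 2, ST oil library A, ST oil library B or ST library C, with TMM factors on recovered reads, with edgeR or with neither trend nor robust settings (adjusted p up to 0.237).

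**Figure D4:**
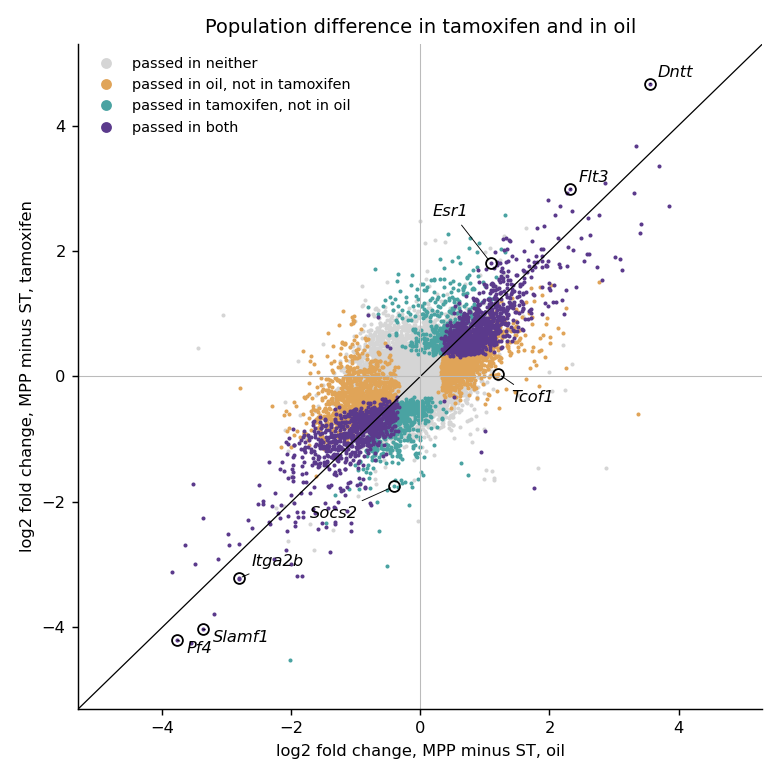
Log2 fold change (MPP minus ST, on log2(value + 1)) of every gene in oil (horizontal axis) and under tamoxifen (vertical axis), coloured by the comparison in which it was called; the line marks equal values and 8 genes are circled. Most genes called in both lie along the line (Pearson r = 0.661 over all genes), and Tcof1 lies at 1.21 in oil and 0.04 under tamoxifen.

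Markers of mature cells that a sort can carry over were read out beside these results. Mature neutrophil markers summed to 408.3 to 986.2 in MPPs and 210.5 to 357.8 in ST cells. Of 13 measured (of 16 listed), 3 were higher (23.1% called, near the 19.6% of all genes), with a median of 1.14. The count was 1 without MPP library 2 or ST library A and 7 without MPP library 3. Itgam, an integrin of myeloid cells and some progenitors, stood at 155, 186 and 188 in MPPs against 67.9, 96.4 and 75.1 in ST cells (1.14, adjusted p = 0.00258). Retnlg and Mmp8, of granules, stood at 11.7, 21.9 and 4.14 in MPPs against 0.399, 2.43 and 3.47 in ST cells and at 17.8, 38.4 and 4.71 in MPPs against 1.46, 2.14 and 7.06 in ST cells (2.04, 0.0105 and 2.03, 0.0133 for log2 fold change and adjusted p). Their calls were lost without MPP library 2 or ST library A (adjusted p up to 0.0701) and without MPP library 2, ST library A or ST library B or with a fit of only the groups compared (adjusted p up to 0.138). In MPPs no library had a neutrophil marker at 0 reads, and in ST library A 2 of the 13 were at 0.

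Erythroblast markers summed to 109.8 to 612.7 in MPPs and 199.1 to 244.7 in ST cells, with MPP library 2 above all others. Of 16 measured (of 17 listed), 4 were lower and 0 higher (25% called, beside 19.6% of all genes), with a median of 0.31, opposite in sign to the calls. Hemgn, a nuclear protein of early erythroid and other progenitors, stood at 23.9, 35.5 and 15.5 in MPPs against 51.4, 46.7 and 55.9 in ST cells (-1.08, adjusted p = 0.000342). The calls of Rhag (-1.89, 0.0247) and Gypc (-0.52, 0.0263), membrane proteins of red cells, were each lost without at least 2 libraries. That of Rhag was lost without MPP library 1, MPP library 3, ST library A or ST library C, with edgeR, with DESeq2, with a fit of only the groups compared or with library weights (adjusted p up to 0.147). That of Gypc was lost without MPP library 2, MPP library 3, ST library A or ST library C (adjusted p up to 0.153). Lower markers numbered 1 without MPP library 3, ST library A or ST library C and 2 without MPP library 1, and higher ones 1 without MPP oil library 3 and 4 without MPP library 3. The part of erythroblasts in the lower megakaryocyte-erythroid genes was not tested.

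T and NK cell markers summed to 84.38 to 103.8 in MPPs and 123.1 to 175.1 in ST cells. Of 12 measured (of 20 listed), 3 were lower and 2 higher (41.7% called, beside 19.6% of all genes). Thy1 is given above among the sorting markers. Gzmb, granzyme B, had 1 read in MPPs and 39 in ST cells, a ratio of 44.9 (exact 95% interval 7.6 to 1820, limma adjusted p = 0.00435). Gzmb is also on the list of mast cell, basophil and eosinophil markers. Trbc1, a constant segment of the T cell receptor, had 0 reads in MPPs and 14 in ST cells, at least 5.38-fold higher in ST cells against a floor of 3 reads over the group (adjusted p = 0.0215). The call was lost without MPP library 1, MPP library 2, ST library A or ST library B or with pseudocount 5 (adjusted p up to 0.187). Lck, a kinase of T cells and lymphoid progenitors, was higher in MPPs at 16.8, 15.1 and 12.4 in MPPs against 3.59, 8.43 and 4.49 in ST cells (1.34, adjusted p = 0.00449). The count of higher markers was 1 without MPP library 2, MPP library 3, ST library B or ST library C. B cell markers summed to 718.6 to 1006 in MPPs and 417.7 to 705.3 in ST cells, with every MPP library above every ST library. Cd74, given above, was the 1 of 10 measured (of 16 listed) that was called (10%, beside 19.6% of all genes).

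Macrophage and monocyte markers summed to 714.9 to 922.6 in MPPs and 776.0 to 841.6 in ST cells, with overlap. Of 16 measured (of 17 listed), 2 were higher and 1 lower (18.8% called, near the 19.6% of all genes). Mpeg1, a pore-forming protein of macrophages, stood at 86.8, 94.9 and 131 in MPPs against 24, 35 and 32 in ST cells (1.74, adjusted p = 0.000342). Ctss, the protease cathepsin S, stood at 46.6, 53.9 and 37.2 in MPPs against 30.2, 29 and 15.3 in ST cells (0.90, adjusted p = 0.00876), whose call was lost without MPP library 2 or ST library C (adjusted p up to 0.0975). Higher markers numbered 1 without MPP library 2 or ST library C, and lower ones, Ly6c2 alone, 0 without MPP library 1 or ST library B. Stroma and endothelium markers summed to 179.7 to 261.5 in MPPs and 202.6 to 207.4 in ST cells. Of 10 measured (of 18 listed), Pdgfrb was higher and Tek lower (20% called, near the 19.6% of all genes), both given above. Higher ones numbered 0 without MPP library 3 and 2 without MPP library 1. The part of such cells in the results above was not tested.

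**Figure D5:**
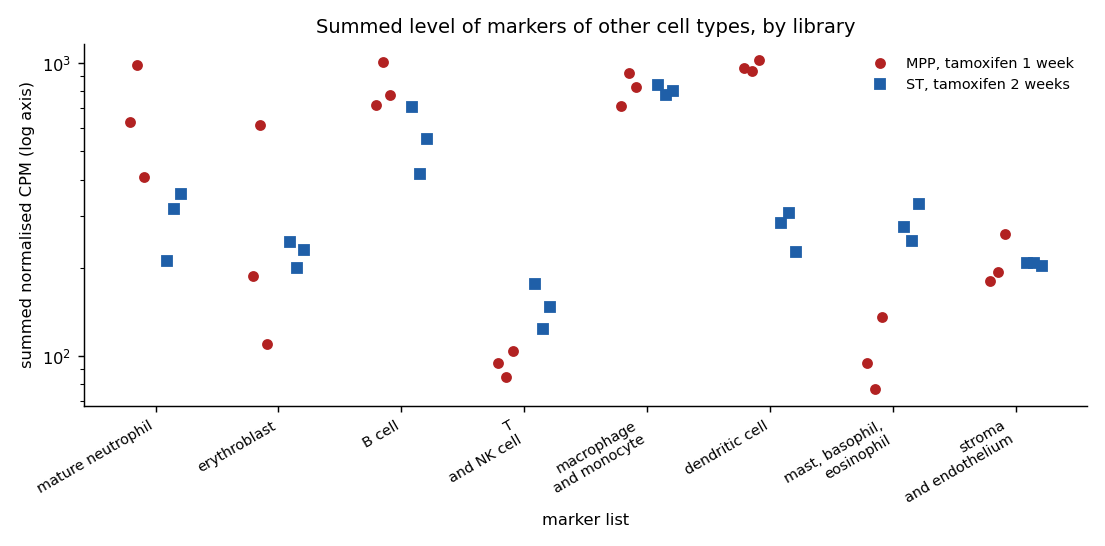
Summed normalised CPM (log axis) of 8 lists of markers of other cell types in each MPP library (circles) and ST library (squares) from tamoxifen-treated mice. Neutrophil, dendritic and B cell sums are higher in every MPP library, T and NK cell and mast cell, basophil and eosinophil sums are lower in every MPP library, and MPP library 2 has the highest erythroblast sum (612.7).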

How the data were processed

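Gene expression of sorted marrow cells was measured by RNA sequencing of amplified cDNA in 18 libraries, 3 in each of 6 groups. The deposited signal values are normalised CPM: in 100% of values each equals a whole number of reads plus 0.5, times 1 constant per library (tolerance 0.001 read), so whole reads were recovered. The submitters' processing notes name Picard, cutadapt, RSEM 1.17, limma and the build NCBIM37; the sources used here do not give how they scaled or filtered. All 14419 genes of the table were tested and none was filtered out. The range of reads per library stands with the results; intervals and floors cover counting error only, since no molecular identifiers are stated.

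limma 3.58.1 (R 4.3.3, statmod 1.5.0) was fitted to log2(value + 1) over all 18 libraries with 1 mean per group (12 residual degrees of freedom), trend and robust, with Benjamini-Hochberg adjustment over all genes at 0.05. The contrasts were MPP against ST under tamoxifen, the same in oil, and their difference. edgeR 4.0.16 and DESeq2 1.42.0 on recovered reads, other pseudocounts, a filter, normalisations, variance settings, a replicate block and leaving out single libraries were alternatives. The labels give no batch. The comparison, that is its members, and the gene lists were chosen with earlier results of these data known, and no list was tested as a set.

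Genes were named by rule: all measured sorting markers; the 12 largest called differences in each direction among genes above the median level whose groups did not overlap; the 4 called members of smallest p in each list (or the 1 of smallest p); the called genes of the treatment difference; and Esr1, Greb1 and Pdgfrb. Some genes the rule names are not reported here, and list counts include them. Promoters were matched by symbol to RefSeq's table for GRCm38.p6.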

Additional observations from a re-analysis of the deposited data

Results flagged for a closer look

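The population difference in Tcof1 differed between the treatments by a test of that difference itself. It was 0.04 under tamoxifen and 1.21 in oil on log2(value + 1), and tamoxifen minus oil gave -1.17 (limma adjusted p = 0.0441 over 14419 genes). All 3 ST libraries of tamoxifen-treated mice lay above all 3 ST libraries of oil-treated mice, and over the 24 alternatives the adjusted p ran from 0.000126 to 0.237, with the call lost in 10. The cause was not tested.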

How the results depend on the processing

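The 2820 calls under tamoxifen stayed within 1.5 times of that number under all 24 alternatives, from 2400 with neither trend nor robust settings to 3572 with library weights, and from 1968 (without ST library C) to 3545 (without LT library A) when single libraries were left out. edgeR gave 2921 and DESeq2 3088, of which 2717 and 2769 were among the limma calls with the same direction. The oil count ran from 3358 to 5092 without single libraries. The replicate block, with a consensus correlation of 0.0126, gave 2823 calls and changed no call of a named gene; MPP and ST libraries share no replicate label, and same-labelled libraries of other group pairs had deviations correlated at -0.00527 to 0.137. Of the 126 called genes named, 109 to 126 kept their call under each alternative, and none reversed. The count for the treatment difference, 1 here, was 9 with quantile normalisation, 0 with TMM factors, 0 with edgeR (1708 at an unadjusted p below 0.05), 128 with DESeq2, 36 with only the groups compared, 155 with library weights, 0 with neither trend nor robust settings (1621 unadjusted), and 0 to 164 without single libraries (164 without LT library A, 35 without ST oil library C). For this difference DESeq2 gave an adjusted p to 3237 genes, while limma and edgeR adjusted over 14419, so its count of 128 is not directly comparable. Among uncalled genes the sign turned for Procr (-0.49 here) without MPP library 3 (0.13). Over single libraries left out its log2 fold change ran from -0.85 to 0.13. Fcgr2b (0.11) turned with DESeq2 (-0.0041) and ran from -0.26 (without ST library A) to 0.55 without single libraries, at -0.098 without MPP library 3. The causes were not tested.

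Counts in lists that moved by over 1.5 times under settings other than leaving out a library were these. With library weights, replication had 8 lower (5 here) and 1 higher (0), mitosis 11 lower (7), Hox genes 4 higher (1) and 1 lower (0), JAK-STAT genes 11 higher (6), stem cell regulators 8 higher (5), cholesterol genes 2 lower (1), and interferon genes 0 lower (1). With only the groups compared, mitosis had 13 lower (7), cell cycle regulators 4 lower (2), noncoding RNAs 3 lower (5), B cell markers 2 higher (1), replication 1 higher (0) and p53 targets 1 lower (0). With neither trend nor robust settings, interferon genes had 1 higher (6), mitosis 4 lower (7), replication 3 lower (5), stem cell enriched genes 2 higher (4), and BCL2 family, cholesterol and noncoding genes 1 higher each (2). With quantile normalisation, BCL2 family and cholesterol genes had 1 higher each (2), noncoding RNAs 0 higher (2), interferon genes 0 lower (1), and Hox and mitochondrially encoded genes 1 lower each (0). T and NK cell markers had 1 higher (2) with edgeR and DESeq2, and Hox genes 2 lower (0) with both and 1 lower with the block or a pseudocount of 0.5. Lower erythroblast markers were 2 (4) with edgeR, DESeq2, weights or only the groups compared, and higher ones 1 to 3 (0) under 7 settings. Genes against the direction of their list, 0 here, numbered 1 for lymphoid priming (DESeq2, weights or a pseudocount of 0.5), ribosome biogenesis (edgeR, DESeq2, weights or only the groups compared) and MHC genes (weights or only the groups compared).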

Other observations

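A set of 9 genes, chosen after their values were seen, was called in opposite directions under tamoxifen and in oil. Gspt1, a translation termination factor, stood at 259 ± 15.5 in MPPs and 324 ± 12.1 in ST cells under tamoxifen and at 258 ± 6.31 in MPPs and 180 ± 9.21 in ST cells in oil (SD, n = 3). Lrrc59, a ribosome-associated membrane protein, stood at 187 ± 18.3 and 246 ± 19.7 under tamoxifen and at 174 ± 10.6 and 135 ± 17.3 in oil, in the same order. In both genes the ST level was the one that differed between the treatments, while the MPP level stayed close. Agxt2l2 went the other way, with 126 ± 18.1 in MPPs and 90.3 ± 13.2 in ST cells under tamoxifen and 104 ± 6.7 and 150 ± 23.5 in oil. The test of the difference between treatments called none of these 3 with limma (adjusted p = 0.0601, 0.119 and 0.114). The other 6 were Tmem181a, C430048L16Rik, Gm14436, Gm8923, Gm17403 and Gm17275, of which Tmem181a, Gm14436 and Gm8923 were near the detection limit.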
